A study of Homo sapiens with 16 samples.

Results

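The unfolded protein and integrated stress genes are 36 genes of endoplasmic reticulum (ER) protein folding, ER-associated degradation (ERAD) and the ATF4 pathway, listed by symbol and taken from a table of 62754 genes. By role they are 15 ER folding genes (HSPA5, HSP90B1, CALR, CANX, PDIA3, PDIA4, PDIA6, P4HB, DNAJB9, DNAJB11, DNAJC3, SDF2L1, MANF, CRELD2 and HYOU1), 4 ERAD genes (HERPUD1, SEL1L, SYVN1 and EDEM1), 4 sensor genes (ERN1, ATF6, EIF2AK3 and XBP1, the last a transcription factor), 8 integrated stress regulators (ATF4, DDIT3, PPP1R15A, TRIB3, CHAC1, DDIT4, SESN2 and CEBPB) and 5 amino acid genes (ASNS, PSAT1, PHGDH, SHMT2 and SLC7A11). All 36 were found once each, and all 36 passed the filter on low counts that left 24515 genes for testing. They were measured in planar cultures of islets differentiated from HUES8 cells, a human embryonic stem cell line of wild-type genotype, as bulk total RNA of whole cultures. Each culture received 1 of 7 compounds, or the solvent DMSO, in its medium beginning at stage 5 and ending 7 days into stage 6. The compounds were rimonabant at 125 nM (which antagonises the cannabinoid receptor CNR1), colchicine at 10 nM (which blocks tubulin polymerisation), rottlerin at 1.23 uM (used as a kinase inhibitor), moxifloxacin at 1.1 uM (a fluoroquinolone antibiotic), epirizole at 2.5 uM (an anti-inflammatory drug), Ly-294002 at 120 nM (a PI3 kinase inhibitor) and vardenafil at 125 nM (a phosphodiesterase 5 inhibitor). These compounds are not structural relatives and were not given at 1 common dose. Each of the 8 treatments had 2 libraries, 16 in all, from 1 cell line and under 1 batch label. Whether both libraries of a treatment came from separate cultures is not stated, so p-values measure the spread between libraries, which may be technical. A computational tool had picked the compounds for a possible effect on the maturation of beta cells, and the comparisons ask which genes differ from DMSO under each.

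The ER folds the proteins that a cell secretes, and beta cells, which make large amounts of proinsulin, depend on it heavily. When unfolded proteins build up, the ER sensors ERN1 (IRE1), EIF2AK3 (PERK) and ATF6 start the unfolded protein response. ERN1 splices XBP1 RNA into the form that encodes a strong transcription factor, and XBP1 and ATF6 then raise chaperones and ERAD genes. EIF2AK3, like kinases that sense amino acid shortage, phosphorylates eIF2-alpha and starts the integrated stress response, in which translation of ATF4 rises. ATF4 and its partner DDIT3 (CHOP) raise genes of amino acid synthesis and import, and prolonged DDIT3 expression favours cell death. Counts per gene do not separate spliced from unspliced XBP1, and RNA of ATF4 does not measure its translation.

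Short DNA elements link the promoters of these genes to those factors, and 5 promoters that carry them are shown because they belong to the marker HSPA5 or to genes whose levels the results turn on. The windows are the 250 bases before a transcription start annotated by RefSeq on GRCh38.p14, 5′ to 3′. The gene spans given later come from GENCODE 29, whose outermost starts lie further upstream for some genes. The CRELD2 window and part of the ASNS window therefore fall inside those spans. The CHAC1 window likewise falls inside the GENCODE 29 span of CHAC1, chr15:40952962-40956519. In the windows, capitals mark the matches to the elements described next.
HSPA5, chr9:125241344-125241593, minus strand: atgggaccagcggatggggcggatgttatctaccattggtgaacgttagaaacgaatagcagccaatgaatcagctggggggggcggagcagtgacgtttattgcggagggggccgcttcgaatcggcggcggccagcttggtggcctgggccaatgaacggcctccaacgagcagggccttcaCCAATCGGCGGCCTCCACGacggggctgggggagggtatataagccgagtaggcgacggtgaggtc
CRELD2, chr22:49918384-49918633, plus strand: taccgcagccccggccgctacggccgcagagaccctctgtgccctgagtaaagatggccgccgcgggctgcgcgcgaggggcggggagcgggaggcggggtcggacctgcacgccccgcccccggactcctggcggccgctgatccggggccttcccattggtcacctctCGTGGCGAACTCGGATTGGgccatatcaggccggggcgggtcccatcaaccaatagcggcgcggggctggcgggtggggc
HYOU1, chr11:119057206-119057455, minus strand: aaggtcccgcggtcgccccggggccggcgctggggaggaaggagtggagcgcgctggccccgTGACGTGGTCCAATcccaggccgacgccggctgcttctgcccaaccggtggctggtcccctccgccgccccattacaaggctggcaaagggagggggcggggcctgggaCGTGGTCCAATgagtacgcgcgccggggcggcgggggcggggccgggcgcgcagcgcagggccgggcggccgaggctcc
CHAC1, chr15:40953221-40953470, plus strand: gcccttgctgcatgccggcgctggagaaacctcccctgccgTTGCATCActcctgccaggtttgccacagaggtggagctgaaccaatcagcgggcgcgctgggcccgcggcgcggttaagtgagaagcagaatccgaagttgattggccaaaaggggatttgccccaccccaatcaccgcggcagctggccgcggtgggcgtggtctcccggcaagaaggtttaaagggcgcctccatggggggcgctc
ASNS, chr7:97872409-97872658, minus strand: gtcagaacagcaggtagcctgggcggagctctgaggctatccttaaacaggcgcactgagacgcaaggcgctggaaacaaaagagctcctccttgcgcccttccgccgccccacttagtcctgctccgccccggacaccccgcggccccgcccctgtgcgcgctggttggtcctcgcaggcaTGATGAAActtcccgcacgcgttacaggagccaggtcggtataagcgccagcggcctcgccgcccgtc
Each motif was searched on both strands. The ER stress element, CCAAT and CCACG with 9 bases between them, which ATF6 binds together with NF-Y, was in the windows of 7 of the 33 genes that had a window (HSPA5, HSP90B1, CALR, CANX, PDIA6, CRELD2 and XBP1), and in 0.0916% of 27305 genes with a window. The other form of it, ATTGG and CCACG with 1 base between them, was in 3 of the 33 (SDF2L1, HYOU1 and HERPUD1), against 0.0659% of all genes. The XBP1 element TGACGTGG was in HYOU1, where it overlaps a match of the other form, and in 0.78% of all genes. The ATF4 element TGATGNAA was in 3 of the 33 (HERPUD1, CHAC1 and ASNS), against 3.89% of all genes. These matches describe the letters in the windows and are not measured binding. PDIA3, SHMT2 and SLC7A11 had no window.

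Library totals ran from 23294377 to 30701868 reads. Levels are given as CPM (counts scaled to a common library size) after TMM scaling, and the lowest count of any of the 36 genes in any library was 80 reads, for SDF2L1. Islet hormone transcripts were scarce, with INS at 17 to 180 reads and IAPP at no more than 1 read, while the general endocrine gene CHGA had 32.9 to 310 CPM and the liver gene AFP 2570 to 6980 CPM. The summed level of 4 hormone markers ran from 3.20 to 43.2 CPM and that of 9 liver and gut markers from 5680 to 11760 CPM. In bulk cultures, fewer cells of a type and less RNA per cell cannot be told apart. An endocrine score, the mean log2 level of 14 endocrine markers, ran from 2.00 to 3.80, with wide gaps inside treatments (3.38 and 2.04 in the rottlerin libraries). Libraries also differed in how their counts leaned with GC content. The median log2 deviation of the most GC-rich of 5 gene bins, minus that of the most GC-poor, was 0.681 in rimonabant 2 and 0.142 in rimonabant 1, between -0.185 and 0.157 in the other compounds, and -0.300 and -0.351 in DMSO. Mitochondrially encoded genes took 1.43% of reads in rimonabant 2 and 2.66% and 2.84% in DMSO, within a range of 1.43% to 2.84%.

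The stress genes were well expressed throughout, and per kilobase of exon the folding genes led. In TPM (a level scaled to exon length and library size), the median over 16 libraries was 894 for CALR, a calcium-binding lectin chaperone, 883 for HSP90B1, the ER form of HSP90, and 705 for HSPA5, the BiP chaperone. ATF4 followed at 517 TPM, then the membrane lectin chaperone CANX at 449 TPM and the disulfide isomerase PDIA3 at 442 TPM. The disulfide isomerases P4HB, PDIA6 and PDIA4 had 330, 294 and 251 TPM, and the other folding genes lay between 11.2 TPM for CRELD2 and 109 TPM for HYOU1. Among the ERAD genes HERPUD1, a membrane scaffold, had 113 TPM, SEL1L 75.5, the mannosidase EDEM1 59.4 and the ubiquitin ligase SYVN1 31.2 TPM. XBP1 had 138 TPM, and of the sensors EIF2AK3 stood at 90.4, ATF6 at 43.9 and ERN1 at 9.35 TPM. Among the regulators PPP1R15A, which directs the phosphatase of eIF2-alpha, had 240 TPM, DDIT4 94.4, SESN2 59.0, DDIT3 47.3, CEBPB 15.4 and CHAC1 12.9 TPM. Among the amino acid genes the serine synthesis enzymes PSAT1 and PHGDH had 65.1 and 44.5 TPM, SHMT2 38.5 and SLC7A11 35.4 TPM. The lowest of the 36 was ASNS, asparagine synthetase, at 5.30 TPM, and the pseudokinase TRIB3 had 11.9 TPM. The summed CPM of all 36 genes differed little, from 6165 in rimonabant 2 to 7208 in rottlerin 2.

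The genes differed in how far they varied over the 16 libraries. The highest library was only 1.19 times the lowest for DNAJB11, an HSP40 partner of HSPA5, and for the secreted ER protein MANF, 1.28 times for HSPA5, 1.29 times for PPP1R15A and 1.30 times for ATF4. It was 3.22 times the lowest for CHAC1, a glutathione-degrading enzyme induced by ATF4, 2.96 times for ASNS, 2.42 times for DDIT3, 2.38 times for the small ER protein SDF2L1 and 2.26 times for the cystine transporter SLC7A11. Both extremes of DDIT3 came from compounds, with 22.2 CPM in vardenafil 1 and 9.16 CPM in Ly-294002 2.

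**Figure D1:**
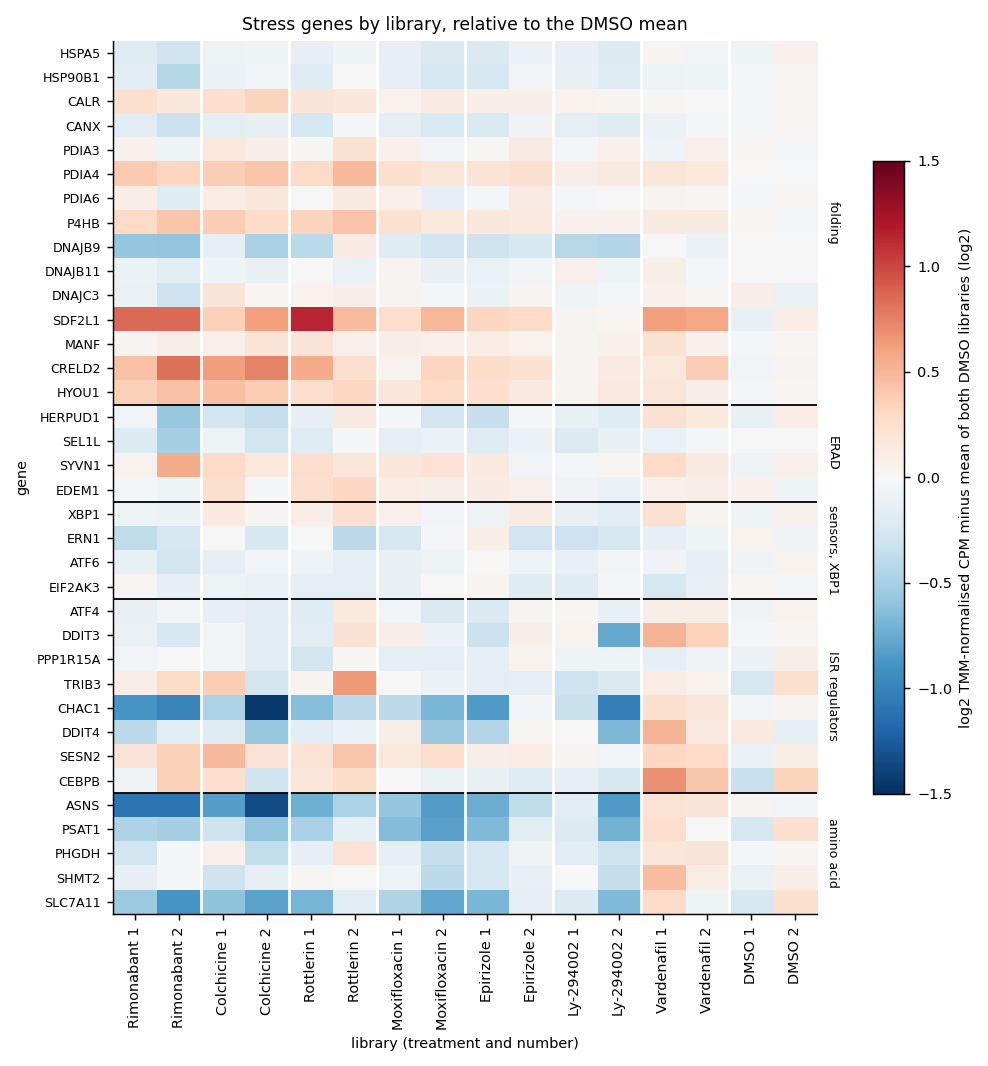
Colours show the log2 TMM-normalised CPM of each of the 36 genes (rows, grouped by role) in each of the 16 libraries (columns, 2 per treatment, DMSO at the right) minus the mean of both DMSO libraries. SDF2L1, CRELD2, HYOU1, PDIA4 and P4HB sit above the DMSO mean in all 14 compound libraries, and ASNS sits below it in the 12 libraries of the compounds other than vardenafil.

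Rimonabant was the compound under which stress genes passed the test. Of the 36 genes, 7 passed against DMSO, 5 higher and 2 lower, by edgeR's quasi-likelihood test with Benjamini-Hochberg adjustment over all 24515 genes, under 0.05. Over all genes tested, 7.8% passed, 5.03% higher and 2.77% lower. The 5 that rose were all ER folding genes, and the 2 that fell were DNAJB9 and ASNS, the enzyme that makes asparagine. The median log2 fold change of the 36 was -0.08, against 0.004 over all genes tested. Both rimonabant libraries were above both DMSO libraries for 8 of the 36, against 26.8% of all genes, and below both for 15, against 26.4%.

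In GENCODE 29 coordinates on GRCh38 HYOU1 is ENSG00000149428, chr11:119044189-119057202, minus strand, P4HB is ENSG00000185624, chr17:81843159-81860694, minus strand, and PDIA4 is ENSG00000155660, chr7:149003062-149028641, minus strand. CRELD2 is ENSG00000184164, chr22:49918167-49927540, plus strand, and SDF2L1 is ENSG00000128228, chr22:21642261-21644298, plus strand. DNAJB9 is ENSG00000128590, chr7:108569568-108574850, plus strand, and ASNS is ENSG00000070669, chr7:97852118-97872542, minus strand. The markers are HSPA5 (ENSG00000044574, chr9:125234853-125241330, minus strand) and DDIT3 (ENSG00000175197, chr12:57516588-57521737, minus strand).

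HYOU1, an ER chaperone related to HSP70, had 228 and 241 CPM in the rimonabant libraries, against 174 and 182 CPM in the DMSO libraries. It rose by 0.40 on the log2 scale (SE 0.0803, adjusted p = 0.0147), and the groups did not overlap. P4HB, the protein disulfide isomerase that is also a subunit of collagen prolyl hydroxylase, had 468 and 510 CPM under rimonabant and 389 and 372 CPM under DMSO. It rose by 0.36 (SE 0.0762, adjusted p = 0.0174). PDIA4, another disulfide isomerase, had 228 and 218 CPM under rimonabant and 175 and 173 CPM under DMSO, and rose by 0.36 (SE 0.0790, adjusted p = 0.0198). The 3 rises were of similar size, with both rimonabant libraries above both DMSO libraries. CRELD2, an ER protein induced by the unfolded protein response, had 16 and 20.9 CPM under rimonabant and 11.5 and 12.1 CPM under DMSO, a rise of 0.65 (SE 0.165, adjusted p = 0.0324). SDF2L1, part of an ER chaperone complex with HSPA5, had 6.78 and 6.77 CPM under rimonabant and 3.49 and 4.07 CPM under DMSO, a rise of 0.84 (SE 0.229, adjusted p = 0.0393).

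The 2 genes that fell did so in both libraries. DNAJB9, a co-chaperone of HSPA5, had 25.3 and 25 CPM under rimonabant and 37.7 and 37.6 CPM under DMSO, a log2 change of -0.58 (SE 0.149, adjusted p = 0.0324). ASNS had 4.35 CPM in both rimonabant libraries and 9.55 and 8.98 CPM in the DMSO libraries, a log2 change of -1.09 (SE 0.246, adjusted p = 0.0206). The abundant chaperones HSPA5, HSP90B1 and CANX had negative log2 changes that did not pass, while CALR, the most abundant, was at 0.20 (SE 0.0718, adjusted p = 0.0926). HSPA5 was at -0.25 (SE 0.0826, adjusted p = 0.0791) and HSP90B1 at -0.29 (SE 0.104, adjusted p = 0.0956). HSPA5 had 645 and 597 CPM under rimonabant and 706 and 767 CPM under DMSO. DDIT3 had 14.5 and 13.2 CPM under rimonabant and 15.3 and 15.9 CPM under DMSO, a change of -0.17 (SE 0.223, adjusted p = 0.704). Among the ERAD genes, sensors and integrated stress regulators none passed, and SEL1L, the adaptor of the ERAD ligase, was nearest, at -0.34 (SE 0.103, adjusted p = 0.0541). All 5 amino acid genes had negative log2 changes, with a median of -0.50, and ASNS alone of them passed.

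Genes of the same pathways outside the 36 were counted too. Of 33 other ER genes 1 passed, the oxidoreductase ERO1A, which fell by 0.81 on the log2 scale (SE 0.203, adjusted p = 0.0367). Of 36 other integrated stress genes tested, 5 passed and all 5 fell. Over all genes tested, 7.8% passed, 5.03% higher and 2.77% lower. The 5 included ATF3, a stress-induced transcription factor, at -0.59 (SE 0.123, adjusted p = 0.0163), and the amino acid transporter SLC38A2 at -0.49 (SE 0.140, adjusted p = 0.0472). The others were the tRNA synthetases EPRS1 at -0.43 and NARS1 at -0.34 (adjusted p = 0.0343 for EPRS1 and 0.0362 for NARS1), and the tRNA exporter XPOT at -0.52 (adjusted p = 0.0324). With the offset for GC content described next, none of these outside genes passed edgeR's test. In that fit 2 of the other ER genes and 12 of the other integrated stress genes had an unadjusted p under 0.05, against 9.26% of genes.

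**Figure D2:**
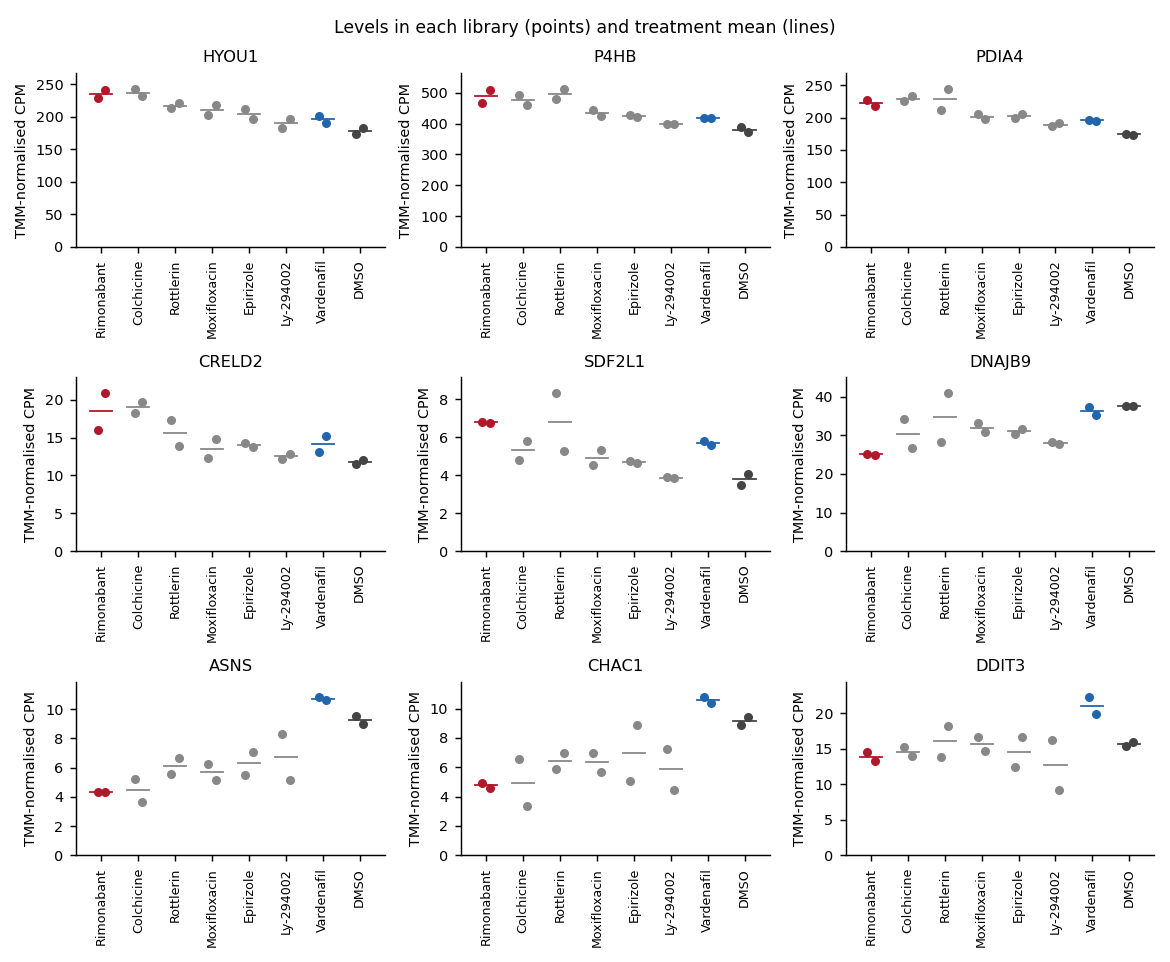
Points show TMM-normalised CPM in each library and short lines the mean of 2 libraries, for the 7 genes that passed under rimonabant and for CHAC1 and DDIT3, with 8 treatments on each horizontal axis and DMSO at the right. HYOU1, P4HB, PDIA4, CRELD2 and SDF2L1 are above DMSO under rimonabant, and vardenafil holds the highest means of ASNS, CHAC1 and DDIT3.

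The rimonabant calls moved with GC content and with single libraries. Over the 36 genes, the log2 change rose with the GC content of the longest transcript (Spearman's rho 0.548, as a description over genes that share libraries), and over 23352 genes rho was 0.574. SDF2L1, CRELD2, HYOU1, P4HB and PDIA4 have GC contents of 65.6%, 54.5%, 55.2%, 58.4% and 53.0%, above the median of 47.8% over tested genes, while DNAJB9 has 40.4% and ASNS 47.0%. With an offset that removes each library's GC trend, 0 genes of the whole table and 0 of the 36 passed edgeR's test (12 of the 36 had an unadjusted p under 0.05, against 9.26% of genes), and P4HB stood at 0.004, SDF2L1 at 0.23, HYOU1 at 0.16, PDIA4 at 0.20 and CRELD2 at 0.42. ASNS kept its size at -1.05 (SE 0.240, adjusted p = 0.266), and CHAC1 had -1.44 (SE 0.362, adjusted p = 0.287) with the offset and -0.94 (SE 0.316, adjusted p = 0.0781) without it. Leaving out 1 rimonabant or DMSO library leaves 1 library in that group. Which genes passed then changed, over the whole table as among the 36. Over those 4 fits HYOU1 ran from 0.36 to 0.44, SDF2L1 from 0.74 to 0.96 and ASNS from -1.13 to -1.05. Without rimonabant 2, HYOU1 stood at 0.36, ASNS at -1.09 and SDF2L1 at 0.85.

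**Figure D3:**
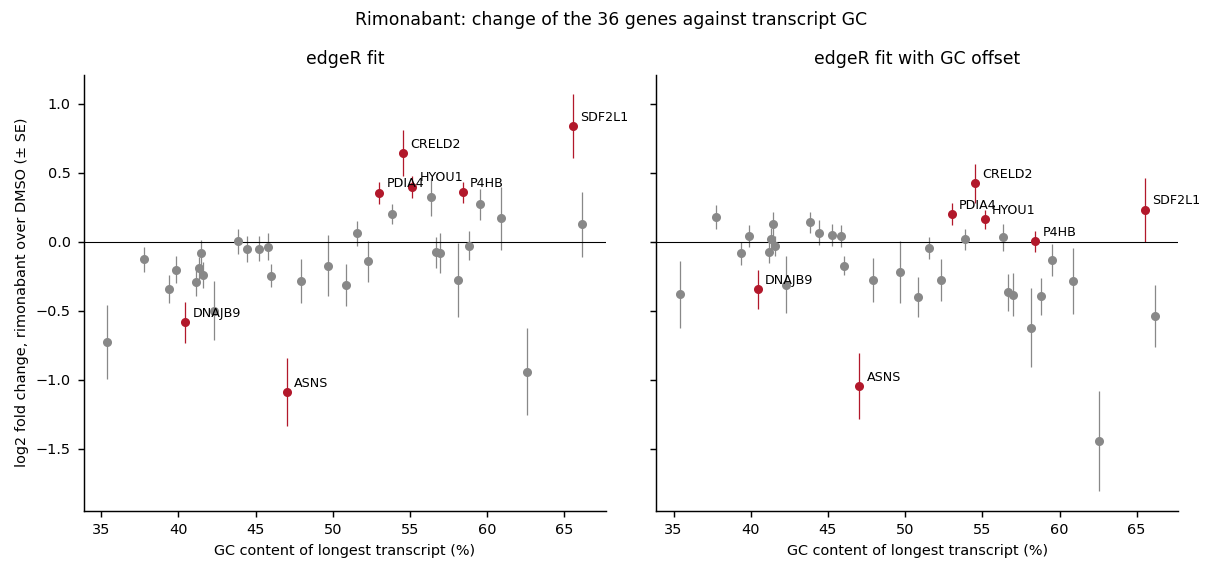
Each point is 1 of the 36 genes, with the GC content of its longest transcript (%) on the horizontal axis and the log2 fold change of rimonabant over DMSO with its SE on the vertical axis, from the fit without (left) and with (right) a GC offset; red marks the 7 genes that passed without it. P4HB moves from 0.36 to 0.004 with the offset and ASNS from -1.09 to -1.05.

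Colchicine gave changes of similar size that did not pass. None of the 36 passed edgeR's test, against 0.196% of all genes tested, although 10 of the 36 had an unadjusted p under 0.05, against 17.5% of all genes. Both colchicine libraries were above both DMSO libraries for 11 of the 36 and below both for 16, against 24.5% and 25.8% of all genes. HYOU1 had 243 and 231 CPM under colchicine and 174 and 182 CPM under DMSO, a log2 change of 0.41 (SE 0.0804, adjusted p = 0.0508). PDIA4 stood at 0.40 (SE 0.0790, adjusted p = 0.0508), with 226 and 233 CPM under colchicine and 175 and 173 CPM under DMSO. ASNS had 5.24 and 3.65 CPM under colchicine and 9.55 and 8.98 CPM under DMSO, a change of -1.06 (SE 0.246, adjusted p = 0.0623). HSPA5 stood at -0.07 (SE 0.0825, adjusted p = 0.713) and DDIT3 at -0.10 (SE 0.223, adjusted p = 0.868), each within its SE. EDEM2, an ERAD mannosidase outside the 36, rose by 0.70 (SE 0.132, adjusted p = 0.0468), but with the GC offset none of the 33 other ER genes passed edgeR's test, 9 having an unadjusted p under 0.05. In that fit none of the 36 passed either, and 13 of them had an unadjusted p under 0.05, against 13.9% of genes. Leaving out a colchicine or DMSO library left 1 or 2 genes of the whole table. The fit shares 1 estimate of the spread over all 16 libraries, and without rimonabant 2 the colchicine comparison had 6 of the 36 past the threshold (HYOU1, PDIA4, P4HB, CALR and CRELD2 higher, ASNS lower), among 525 genes of the table. DESeq2 called 7 of the 36 among 926 genes.

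Rottlerin showed the same folding genes above DMSO, again short of the threshold. None of the 36 passed edgeR's test, against 0.00816% of all genes, and 9 had an unadjusted p under 0.05, against 14.8%. P4HB had 480 and 512 CPM under rottlerin and 389 and 372 CPM under DMSO, a log2 change of 0.38 (SE 0.0762, adjusted p = 0.0657). PDIA4 had 212 and 244 CPM under rottlerin and 175 and 173 CPM under DMSO, a change of 0.39 (SE 0.0790, adjusted p = 0.0657). SDF2L1 had 8.31 and 5.24 CPM under rottlerin and 3.49 and 4.07 CPM under DMSO (0.84, SE 0.229, adjusted p = 0.114), so its libraries differed more from each other than rottlerin 2 did from DMSO. HSPA5 stood at -0.09 (SE 0.0825, adjusted p = 0.646) and DDIT3 at 0.04 (SE 0.222, adjusted p = 0.958). Over the 36 genes, the log2 change rose with GC content (Spearman's rho 0.417, against 0.386 over 23352 genes). With the GC offset 0 genes of the table passed edgeR's test. In that fit 10 of the 36 had an unadjusted p under 0.05, against 10.6% of genes. Without rimonabant 2 in the fit, P4HB and PDIA4 passed among 270 genes of the table, and DESeq2 called 4 of the 36 among 678 genes.

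Moxifloxacin, epirizole and Ly-294002 had 0% of all genes past the threshold in edgeR's test and none of the 36. At an unadjusted p under 0.05 they had 6, 3 and 1 of the 36, against 11.9%, 5.26% and 4.69% of all genes, and DESeq2 called 0 of the 36 in each. Under moxifloxacin the serine synthesis enzyme PSAT1 had 29.4 and 26.2 CPM, against 39.1 and 54.1 CPM under DMSO (-0.75, SE 0.218, adjusted p = 0.301). HYOU1 stood at 0.24 (SE 0.0803, adjusted p = 0.315) and ASNS at -0.70 (SE 0.243, adjusted p = 0.321). Under epirizole the smallest p-values belonged to PDIA4 (0.22, SE 0.0789), HYOU1 (0.20, SE 0.0803) and ASNS (-0.56, SE 0.241), each with an adjusted p of 0.901. Under Ly-294002 they belonged to DNAJB9 (-0.43, SE 0.149), PSAT1 (-0.45, SE 0.216) and CHAC1 (-0.64, SE 0.313), each with an adjusted p of 0.969. Ly-294002 had 28.2 and 27.9 CPM of DNAJB9, against 37.7 and 37.6 CPM under DMSO. HSPA5 stood at -0.17 under moxifloxacin and under Ly-294002 and at -0.15 under epirizole (SE 0.0826 in each). DDIT3 stood at 0.01 under moxifloxacin (SE 0.223), -0.10 under epirizole (SE 0.223) and -0.30 under Ly-294002 (SE 0.224), and its Ly-294002 libraries were far apart at 16.2 and 9.16 CPM.

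Under vardenafil, 7 of the 8 integrated stress regulators and all 5 amino acid genes had positive log2 changes, with medians of 0.25 and 0.19, but none passed. Against DMSO 0% of all genes passed edgeR's test and none of the 36 did, and DESeq2 called 0 of the 36. Of the 36, 4 had an unadjusted p under 0.05, all higher, against 2.77% of all genes higher. They were SESN2, a leucine sensor of the mTORC1 pathway (0.29, SE 0.113), SDF2L1 (0.59, SE 0.231), PDIA4 (0.17, SE 0.0790) and the transcription factor CEBPB (0.51, SE 0.236), each with an adjusted p of 0.890. DDIT3 had 22.2 and 19.9 CPM under vardenafil and 15.3 and 15.9 CPM under DMSO, a log2 change of 0.43 (SE 0.222, adjusted p = 0.890) with a 95% interval of -0.04 to 0.90. HSPA5 had 759 and 713 CPM under vardenafil and 706 and 767 CPM under DMSO, and its change was -0.0006 (SE 0.0825). In 18 of the 36 genes both vardenafil libraries were above both DMSO libraries, against 19.4% of all genes, and in 6 both were below, against 20% of all genes. Of the 18, 9 belonged to the 13 regulators and amino acid genes of the ATF4 arm. Over the 36 genes, the log2 change rose with GC content (Spearman's rho 0.563, against 0.31 over 23352 genes). With the GC offset the regulators had a median of 0.096, with 6 of the 8 positive. The amino acid genes then had a median of 0.20, with all 5 positive. In that fit 1 of the 36 had an unadjusted p under 0.05 in edgeR's test, against 3.94% of genes.

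The vardenafil libraries were then set against the mean of the 6 other compounds, a comparison chosen after these levels were seen, so its p-values are not independent of that choice. ASNS had 10.8 and 10.6 CPM under vardenafil, and 3.65 to 8.31 CPM with a median of 5.37 CPM in the 12 libraries of the other compounds. The log2 difference was 0.95 (SE 0.172, adjusted p = 0.169). CHAC1 had 10.8 and 10.4 CPM under vardenafil and 3.34 to 8.89 CPM in the other 12 libraries, a difference of 0.86 (SE 0.223, adjusted p = 0.302). SHMT2, the mitochondrial serine hydroxymethyltransferase, had 67.4 and 52.5 CPM under vardenafil and 37.1 to 49.1 CPM in the others (0.45, SE 0.108, adjusted p = 0.237). PSAT1 had 55.1 and 46.0 CPM, against 26.2 to 42.0 CPM (0.60, SE 0.157, adjusted p = 0.309). SLC7A11 had 150 and 118 CPM, against 66.3 to 113 CPM (0.66, SE 0.194, adjusted p = 0.366), and DDIT3 22.2 and 19.9 CPM, against 9.16 to 18.2 CPM (0.53, SE 0.163, adjusted p = 0.339). In each of these genes both vardenafil libraries were above all 12 others, as they were for 10 of the 36 in all, against 2.33% of all genes. Both DMSO libraries were also above all 12 for ASNS, CHAC1 and SEL1L, 3 of the 36, against 5.07% of all genes. DMSO had 39.1 and 54.1 CPM of PSAT1, 104 and 145 CPM of SLC7A11 and 45.5 and 52.2 CPM of SHMT2. Set against DMSO instead, the vardenafil change was 0.12 for PSAT1, 0.105 for SLC7A11 and 0.29 for SHMT2. It was 0.21 for ASNS and for CHAC1 and 0.43 for DDIT3, and none passed edgeR's test.

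No gene of the whole table passed in this comparison with edgeR, where 9.76% of genes had an unadjusted p under 0.05 (4.88% higher and 4.88% lower). Of the 36 genes, 12 were higher at that unadjusted p and 2 lower, CALR and HYOU1. The 12 held all 5 amino acid genes, 4 of the 8 integrated stress regulators, and HERPUD1, DNAJB9 and HSPA5. The median difference was 0.60 over the amino acid genes and 0.35 over the regulators, against 0.007 over all genes tested. Among 36 integrated stress genes outside the list, 17 were higher at an unadjusted p under 0.05 and none lower, led by the tRNA synthetases AARS1 (0.46, SE 0.0838) and IARS1 (0.38, SE 0.0868). Among 33 ER genes outside the list, 6 differences were positive and 27 negative, with a median of -0.061. At that unadjusted p, 1 of these ER genes was higher and 4 were lower. DESeq2, whose test on the same contrast called 118 genes, called 5 of the 36 (ASNS, CHAC1, PSAT1, SHMT2 and SLC7A11). With the GC offset ASNS again stood at 0.95 and the median of the amino acid genes at 0.57. Without vardenafil 1 SHMT2 stood at 0.26, against 0.45 with it.

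The same DMSO libraries serve every comparison, so a DMSO level that is high or low moves all of them together. The joint test of the 7 coefficients passed 1 gene of the table (0.00408%) and none of the 36, of which 13 had an unadjusted p under 0.05, against 12.9%. The smallest adjusted p-values among them were those of ASNS, P4HB and HYOU1, each with an adjusted p of 0.151 in edgeR's fit, while DESeq2's likelihood ratio test called 10 of the 36 among 1217 genes. Set against DMSO in a comparison added after the data were seen, the mean of the 7 compounds had 0% of genes past the threshold and none of the 36 with edgeR (12 had an unadjusted p under 0.05, against 16.6%), and 4 of them (PDIA4, HYOU1, P4HB and ASNS) among 714 genes with DESeq2. PDIA4 was at 0.27 (SE 0.0611, adjusted p = 0.0954), HYOU1 at 0.25 (SE 0.0620, adjusted p = 0.0954), P4HB at 0.23 (SE 0.0587, adjusted p = 0.0996) and ASNS at -0.61 (SE 0.174, adjusted p = 0.119). All 14 compound libraries were above both DMSO libraries for PDIA4, P4HB, HYOU1, CRELD2 and MANF (5 of the 36, against 3.54% of all genes), and all 14 were below for SEL1L (1 of the 36, against 3.59%). HSPA5 was at -0.13 (SE 0.0617, adjusted p = 0.316) and DDIT3 at -0.03 (SE 0.168, adjusted p = 0.958). The DMSO libraries also held the lowest values of the GC measure given above. With the GC offset PDIA4 stood at 0.19 (SE 0.0628), HYOU1 at 0.14 (SE 0.0528), P4HB at 0.05 (SE 0.0579) and ASNS at -0.58 (SE 0.171), none passed edgeR's test, and 8 of the 36 had an unadjusted p under 0.05, against 9.38% of genes.

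The endocrine content of the cultures gave a contrast inside treatments. With each treatment's own mean removed, the slope of level on the endocrine score passed for 2 of the 36 genes, against 2.89% of all genes tested. SLC7A11, which imports cystine, fell by 0.32 on the log2 scale per unit of score (SE 0.0702, adjusted p = 0.0275), and ERN1, the IRE1 sensor, rose by 0.20 (SE 0.0512, adjusted p = 0.0493). In DMSO, for example, the library with a score of 3.32 had 104 CPM of SLC7A11 and 29.4 CPM of ERN1, and the library with 2.59 had 145 and 27.2 CPM. SLC7A11 was lower in the library with the higher score in 7 of 8 treatments, colchicine being the exception, and ERN1 was higher there in all 8.

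Of the 36 slopes 28 were negative, and 12 had an unadjusted p under 0.05, 11 of them negative, against 8.21% of all genes negative at that p. All 8 integrated stress regulators and all 5 amino acid genes had negative slopes. ATF4 had -0.12 (SE 0.0402, adjusted p = 0.126), DDIT3 -0.23 (SE 0.0847, adjusted p = 0.173), HSPA5 -0.08 (SE 0.0309, adjusted p = 0.223) and SHMT2 -0.17 (SE 0.0518, adjusted p = 0.0906). Outside the list ERO1B, the disulfide oxidase enriched in islets, rose by 0.86 (SE 0.0645, adjusted p = 1e-06), and WFS1, an ER membrane protein whose loss causes Wolfram syndrome, rose by 0.37 (SE 0.0710, adjusted p = 0.00855). STC2, a secreted glycoprotein induced by ER stress, fell by 0.68 (SE 0.146, adjusted p = 0.0417), and IARS1 fell by 0.16 (SE 0.0358, adjusted p = 0.0260). Neither ERN1 nor SLC7A11 passed when any library of epirizole, Ly-294002, moxifloxacin, vardenafil or rottlerin was left out. Of the pair, SLC7A11 alone passed without either DMSO library or either colchicine library, and ERN1 alone without either rimonabant library. Each such fit leaves 1 library in a treatment, and calls over the whole table moved too, up in some fits and down in others. Over the 16 fits the slope ran from 0.18 to 0.22 for ERN1 and from -0.39 to -0.30 for SLC7A11. With the GC offset 4 passed, ERN1 and SLC7A11 with ATF4 (-0.16) and SHMT2 (-0.21). The score comes from the same libraries, so the slopes describe co-variation. Across libraries the summed liver and gut markers also ran from 5680 to 11760 CPM and the mesenchyme markers from 1706 to 3530 CPM. The sum of 4 markers of cycling cells ran from 136 to 320 CPM. The part of these cell types and of cycling cells in the slopes was not tested.

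**Figure D4:**
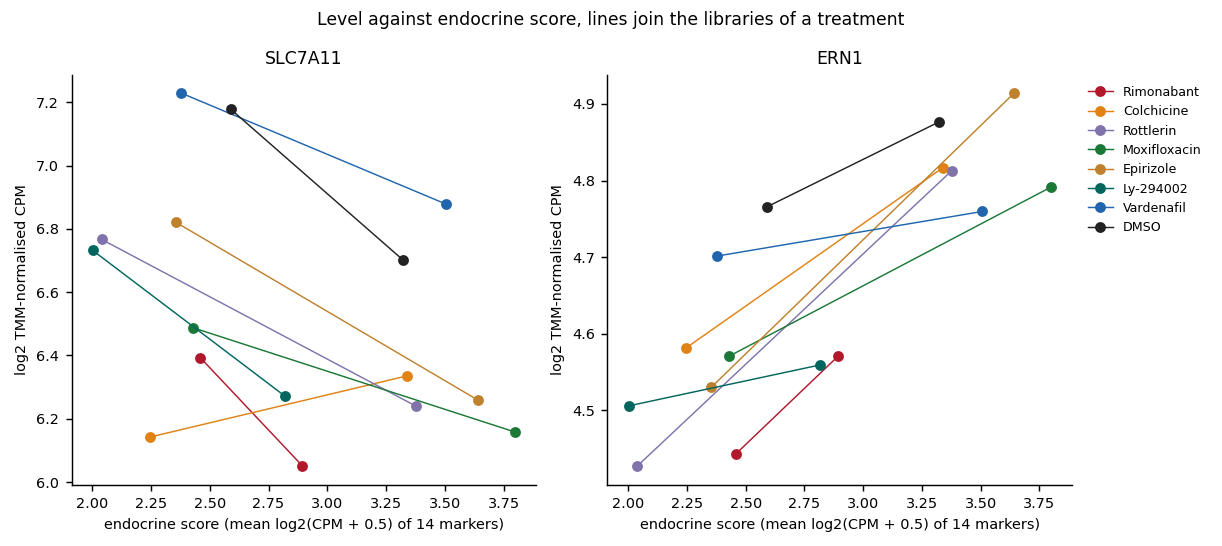
The horizontal axis is the endocrine score of each library and the vertical axis the log2 TMM-normalised CPM of SLC7A11 (left) and ERN1 (right); lines join the 2 libraries of a treatment. SLC7A11 is lower at the higher score in 7 of 8 treatments and ERN1 is higher at it in all 8.

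Likeness to the markers HSPA5 and DDIT3 was measured over the 16 libraries, against each of 24514 other genes. The permutations moved all 16 libraries freely, without keeping the 2 libraries of a treatment together. Their p-values therefore treat libraries of the same treatment as independent. With HSPA5, 6 of the 35 other stress genes passed (Pearson's r with 100000 permutations of the libraries, Benjamini-Hochberg over all genes), against 3.01% of all genes. HSP90B1 had r = 0.871 (permutation p = 2e-05, adjusted p = 0.0109) and Spearman's rho = 0.885 (permutation p = 4e-05, adjusted p = 0.0467). CANX had r = 0.839 (permutation p = 6e-05, adjusted p = 0.0150) and rho = 0.876 (permutation p = 4e-05, adjusted p = 0.0467). SLC7A11 had r = 0.821 and rho = 0.750, PSAT1 0.809 and 0.800, HERPUD1, an ERAD scaffold, 0.752 and 0.697, and DNAJB9 0.740 and 0.765, with permutation p-values for r of 0.00014, 0.00016, 0.00086 and 0.00109 and for rho of 0.00135, 0.00039, 0.0035 and 0.00091. Their adjusted p-values ran from 0.0211 to 0.0430 for r and from 0.0732 to 0.129 for rho. HYOU1 (r = -0.450), CRELD2 (-0.380) and P4HB (-0.358), although folding genes too, had negative r with HSPA5 and did not pass. The sign changed for P4HB, and r shrank for HYOU1 and CRELD2 in some settings. Within treatments, after removing treatment means, r was -0.371 for HYOU1, -0.667 for CRELD2 and -0.259 for P4HB. With GC-corrected levels r was -0.027 for HYOU1, -0.107 for CRELD2 and 0.364 for P4HB, and without the 2 libraries farthest from the median it was -0.163, -0.001 and 0.071.

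Leaving out rimonabant 2 and DMSO 2, the libraries farthest from the median of HSPA5, gave r of 0.798 for HSP90B1, 0.700 for CANX, 0.735 for SLC7A11, 0.838 for PSAT1, 0.613 for HERPUD1 and 0.638 for DNAJB9. Within treatments, after removing treatment means, r was 0.798 for HSP90B1, 0.939 for SLC7A11, 0.889 for HERPUD1 and 0.336 for DNAJB9. Without rimonabant 2 no gene of the table passed, and likewise with GC-corrected levels, where r was 0.755 for HSP90B1 and 0.730 for SLC7A11. The genes of the whole table most like HSPA5 were ELOVL7 (r = 0.928), CCNG1 (0.923) and TNKS2 (0.923), with HSP90B1 at rank 18.

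With DDIT3, none of the 35 passed, against 0.0204% of all genes, and 16 had an unadjusted permutation p under 0.05, against 9.46%. DDIT4, an ATF4- and hypoxia-induced inhibitor of mTORC1, was nearest among them at r = 0.817 (permutation p = 0.00011, adjusted p = 0.134) and rho = 0.838 (permutation p = 0.00012, adjusted p = 0.0684), at rank 9 of the table. CHAC1 followed at r = 0.753 (permutation p = 0.00044, adjusted p = 0.2) and rho = 0.844 (permutation p = 6e-05, adjusted p = 0.0629). The 2 most alike genes of the table were CARS1, a cysteinyl-tRNA synthetase, at r = 0.875 (permutation test, adjusted p = 0.0490) and C1orf43 (0.855). All 5 amino acid genes had positive r with DDIT3, at a median of 0.719, while EIF2AK3 had r = -0.553 (permutation p = 0.0248, adjusted p = 0.458) and rho = -0.529 (permutation p = 0.0367, adjusted p = 0.276). Without Ly-294002 2 and vardenafil 1, the libraries farthest from its median, r was 0.657 for DDIT4, 0.740 for CHAC1 and -0.421 for EIF2AK3. These points share libraries, depth and GC lean, and the values describe these 16 libraries.

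**Figure D5:**
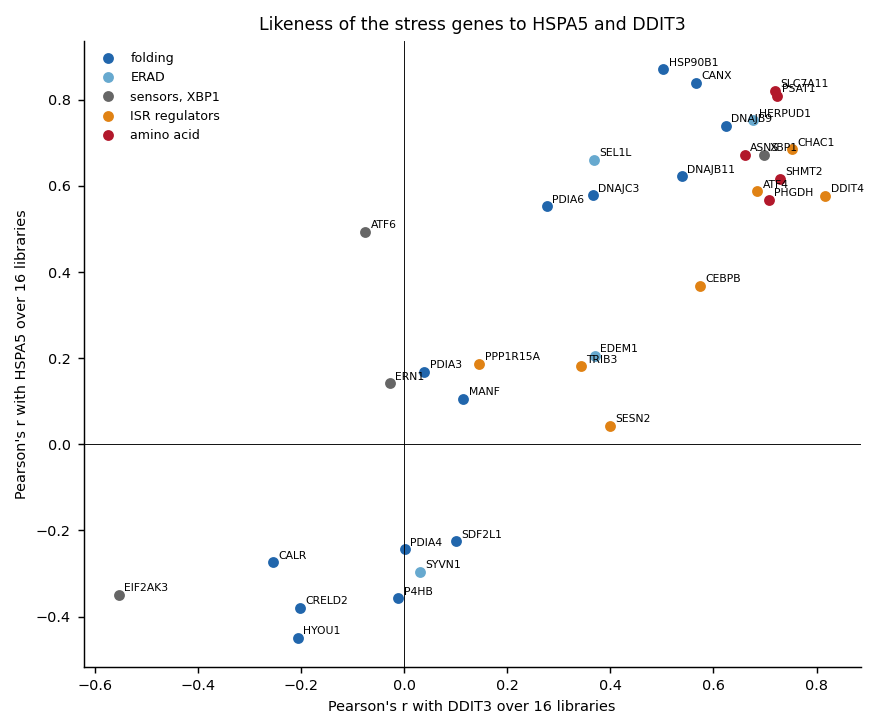
Each point is a stress gene, with Pearson's r with DDIT3 over 16 libraries on the horizontal axis and with HSPA5 on the vertical axis, coloured by role. The 5 amino acid genes lie at the upper right, HSP90B1 and CANX at the top, and HYOU1, CRELD2 and P4HB at the bottom with negative r to HSPA5, which for P4HB is 0.364 with GC-corrected levels.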

How the data were processed

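Bulk total RNA of 16 ribosomal-RNA-depleted libraries was measured, 2 per treatment. The authors deposited raw counts per gene for 62754 genes. Per the labels' protocols, reads passed FastQC 0.11.8, Trimmomatic 0.38, STAR 2.7.1a, Picard 2.20.4, StringTie 2.0.4 and featureCounts 1.6.0, and the submitters' processing notes name HTSeq and GRCh38. Which annotation release and strand setting were used, and how duplicate or multiply mapped reads were handled, is not given in the sources used here, so genes that overlap others may share reads.

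Groups came from the labels, and the genes and lists were chosen with earlier results of these data known. Counts were tested with edgeR 4.0.16 (R 4.3.3, limma 3.58.1): filterByExpr left 24515 genes holding 99.92% of reads, and TMM scaling and 1 robust quasi-likelihood fit over all 16 libraries (8 residual degrees of freedom) gave tests adjusted by Benjamini-Hochberg at 0.05. Intervals are at 95%. The endocrine score is the mean log2(CPM + 0.5) of 14 markers, added to the treatments as a covariate (7 residual degrees of freedom). Correlations used log2(CPM + 0.5) and 100000 permutations, two-sided. Exon lengths and GC content came from GENCODE 29 (GC for 23352 tested genes), and promoter windows from RefSeq on GRCh38.p14. A limit of 3 reads equals 0.0977 to 0.129 CPM and covers counting error only.

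Genes named with values are those past the threshold or, failing that, the 3 with the smallest p, with HSPA5 and DDIT3 in each comparison. Others named in the text, such as HSP90B1, SEL1L or CHAC1, were chosen after their values were seen. Alternatives were DESeq2 1.42.0, its size factors, no filter, a replicate block, a GC offset, the endocrine score as a covariate, 4 libraries only, another pseudocount and leaving out each library. The comparisons of the 7 compounds' mean and of vardenafil with the other compounds, the fits of other comparisons without rimonabant 2 and the GC-corrected correlations were chosen after seeing the data. The fits and correlations were first tested on simulated data.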

Additional observations from a re-analysis of the deposited data

How the results depend on the processing

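Counts of genes and of stress genes past the threshold depended on the test, and the cause was not tested. With DESeq2, colchicine had 926 genes and 7 of the 36, rottlerin 678 and 4, rimonabant 2936 and 11, moxifloxacin 62 genes, vardenafil 2 genes, the mean of the 7 compounds 714 and 4, vardenafil against the other compounds 118 and 5, the joint test 1217 and 10, and the score slope 1114 genes. With DESeq2's size factors in edgeR, colchicine had 150 genes and 2 of the 36, and the score slope 1 of the 36. With no filter, colchicine had 1568 and 9, rottlerin 1076 and 3, moxifloxacin 742 and 2, rimonabant 12 of the 36, the joint test 3022 and 13, the mean of the compounds 1117 and 4, vardenafil against the others 639 and 9, the score slope 1799 and 4, and epirizole 33, Ly-294002 169 and vardenafil 113 genes. With the endocrine score as a covariate, colchicine had 1481 and 7, rottlerin 819 and 3, rimonabant 3613 and 14, the joint test 726 and 6, the mean of the compounds 1064 and 5, vardenafil against the others 257 and 5, moxifloxacin 4 genes and vardenafil 1 gene. With only the 4 libraries compared, colchicine had 134 genes, Ly-294002 1, moxifloxacin 5, rottlerin 1, vardenafil 3, and rimonabant 42 genes and 0 of the 36. With the GC offset, colchicine had 1 gene, rottlerin 0, rimonabant 0 genes and 0 of the 36, the score slope 4 of the 36, likeness to HSPA5 0 genes and 0 of the 36, and likeness to DDIT3 38 genes and 1 of the 36. With a pseudocount of 1, likeness to DDIT3 had 0 genes.

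Same-numbered libraries did not pair (correlation of deviations -0.531 to 0.439 over 28 pairs of groups, 8 of them over 0.1). With the replicate block, colchicine had 5 genes, rimonabant 1090 genes and 5 of the 36, the mean of the compounds 1 gene and the score slope 1 of the 36.

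Leaving out 1 library at a time gave 1 to 525 genes and 0 to 6 of the 36 for colchicine, 0 to 270 and 0 to 2 for rottlerin, 0 to 3913 and 0 to 11 for rimonabant, 0 to 361 and 0 to 1 for the joint test, 0 to 733 and 0 to 3 for the mean of the compounds, 0 to 2 genes for vardenafil against the others, and 268 to 1402 and 0 to 2 for the score slope. Without rimonabant 2, likeness to HSPA5 had 0 genes and 0 of the 36, and likeness to DDIT3 0 genes.

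Among the log2 fold changes of genes named by the rule, changes of sign fell on HSPA5 under vardenafil and on DDIT3. The r of P4HB with HSPA5 also changed sign, as given above, and is outside the tally below. HSPA5 under vardenafil, -0.0006, was 0.0086 with DESeq2 or its size factors, 0.0071 with no filter, 0.0349 with the GC offset, 0.0054 with 4 libraries and -0.0589 to 0.0603 with 1 library left out. DDIT3 under moxifloxacin, 0.0067, was -0.0017 with the GC offset and -0.0856 to 0.0942 with 1 left out, and under rottlerin, 0.0398, was -0.0293 with the score as a covariate and -0.1678 to 0.2314 with 1 left out. For the mean of the compounds DDIT3, -0.0278, was -0.0885 to 0.0221 with 1 left out. Under epirizole, -0.1031, it was -0.3275 to 0.0909. Under Ly-294002, -0.2964, it was -0.7676 to 0.0529, the sign changing without Ly-294002 2. Over the named genes and all alternatives, 642 values kept direction and side of the threshold, 46 gained a call, 73 lost one and 18 changed sign. Each treatment had 2 libraries, and what limited detection was not tested.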
